A study of Mus musculus with 4 samples.

Results

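The naive pluripotency transcription factors were examined as a set of 10 genes, Esrrb, Nr5a2, Klf2, Klf4, Klf5, Tfcp2l1, Tbx3, Zfp42, Prdm14 and Sall4, among the 24026 genes of an allele-resolved RNAseq table of F123-ESCs. The genes were chosen by name for their role in the naive state and not by their measured values, though earlier results of these data were known. All 10 were found in the table. Values are RPKM, the reads on a gene scaled by the gene length and by all reads of the same allele. With S129 and CAST added up, each of the 10 reached a mean of 1 RPKM, the minimum set for comparing the alleles.

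F123-ESCs are a male hybrid line of mouse embryonic stem cells (genotype S129/CAST), in which S129 is the maternal and CAST the paternal genome. The single group consisted of 4 libraries of untreated cells, replicates 1 to 4. The cells had been maintained with LIF and 15% KSR, a serum replacement, on inactivated feeder fibroblasts, were then passaged without feeders on gelatin, and were collected roughly 48 h after plating. PolyA-enriched RNA was sequenced, and reads covering a SNP between the strains were assigned to S129 or CAST. The study set the expression of genes beside their contacts with the nucleolus on one or both alleles. All values thus come from 1 cell line in 1 condition. The labels do not state whether the libraries were separate cultures, so p-values measure the spread between these libraries, which may be technical. In such bulk RNA, fewer cells that express a gene and less RNA per cell cannot be told apart.

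The reads assigned to both alleles came to between 34120416 in replicate 4 and 56627972 in replicate 1. Of the reads on X-linked genes, of which the male cells hold only the S129 copy, 0.112% to 0.132% were assigned to CAST, which is the level of wrong assignment there. All 10 markers of embryonic stem cells, among them Pou5f1, Nanog and Sox2, were above 1 RPKM.

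The naive state is that of the preimplantation epiblast, and mouse ESCs keep it in culture under LIF. LIF acts through STAT3 on KLF4 and TFCP2L1, while ESRRB and TCF7L1 link the network to WNT signaling. Together with OCT4, SOX2 and NANOG, these factors bind many of the same enhancers and each other's genes, so that several can replace each other when one is lost.

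Promoters were searched for short sequences that the factors themselves bind. RefSeq promoters (GRCm38.p6) were matched by symbol for 6 of the 10 genes, Esrrb, Nr5a2, Klf2, Klf4, Tfcp2l1 and Zfp42, with 8 promoters in all. Klf5, Tbx3, Prdm14 and Sall4 were not matched. The 250 bases before the start of Tfcp2l1 (chr1:118627695-118627944 in mm10, plus strand) and of Zfp42 (chr8:43307010-43307259, minus strand) are shown because these genes had the highest deposited RPKM of the set and hold matches to the sequence read by KLF factors. Capitals mark matches on either strand to CCNCNCCC, a form of the CACCC box that KLF and SP factors bind, and to TATAAA, the TATA box.
Tfcp2l1: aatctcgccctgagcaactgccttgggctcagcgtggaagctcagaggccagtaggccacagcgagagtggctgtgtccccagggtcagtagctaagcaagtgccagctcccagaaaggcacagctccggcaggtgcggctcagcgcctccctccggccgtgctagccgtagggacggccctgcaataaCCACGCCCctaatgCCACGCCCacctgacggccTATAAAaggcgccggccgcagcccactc
Zfp42: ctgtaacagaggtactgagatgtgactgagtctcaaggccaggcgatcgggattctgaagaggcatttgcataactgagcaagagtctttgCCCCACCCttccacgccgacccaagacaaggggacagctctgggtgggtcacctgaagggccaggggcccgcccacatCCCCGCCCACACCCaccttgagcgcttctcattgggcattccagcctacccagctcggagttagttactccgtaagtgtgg
The Tfcp2l1 promoter holds the match CCACGCCC at 61 and again at 47 bases before the start, followed by the TATA box at 28. The Zfp42 promoter holds KLF matches at 159, 81 and 75 bases before the start, of which the last 2 overlap, and the octamer read by POU factors such as OCT4 in reverse (ATTTGCAT) at 186. A KLF match was present in 7 of the 8 promoters, at least one for each of the 6 genes, where 45.9% of 32851 promoters of this length hold one. Several of these matches overlap within runs of C or G. TATAAA was found in 2 of the 8 promoters (12.4% of all promoters) and the octamer ATGCAAAT in 1 (1.60% of all). None of the 8 held AAGGTCA, which ESRRB and NR5A2 bind (4.08% of all), AANATGGC, read by YY1 and REX1 (3.91% of all), or the motif of TFCP2L1, CCAG repeated after 6 bases (2.78% of all). These are matches of letters in a window and were not tested as binding sites.

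Among themselves, the 10 factors spanned a wide range of levels, from 2.49 RPKM for Klf2 to 583 RPKM for Tfcp2l1 in the deposited values, given here as the mean of both alleles. Tfcp2l1 and Zfp42 stood far above the others, then came Sall4, Klf4 and Esrrb between 63.1 and 78.4 RPKM, then Prdm14 and Tbx3 between 23.0 and 25.4 RPKM, and last Nr5a2, Klf5 and Klf2 below 10 RPKM. This order rests on the gene lengths behind the RPKM. The steps between the deposited values gave back the length used for each gene, which was 478 bp for Tfcp2l1 although its annotated exons together cover 9438 bp. Divided instead by the length of all annotated exons, Tfcp2l1 went from 583 ± 37.6 to 29.5 ± 1.90 RPKM (SD, n = 4) and from the first to the fourth place.

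On the scale of all annotated exons, Zfp42 was first with 500.4 RPKM, followed by Esrrb (44.9), Sall4 (35.9), Tfcp2l1 (29.5), Prdm14 (25.4), Klf4 (17.8), Tbx3 (10.4), Nr5a2 (7.07), Klf5 (4.80) and Klf2 (2.49). For 4 of the 10 factors, Tfcp2l1, Klf4, Tbx3 and Sall4, all exons covered 2 times the length used or more. Over 11938 genes with at least 1 RPKM and a recovered length this held for 31.5%, and only 131 of them (1.10%) had a ratio as large as the 19.7 of Tfcp2l1. The recomputed levels take the reads of a gene as lying anywhere on its exons, and how reads were counted on genes is not given in the sources used here. On both scales, only reads over SNPs count, and a gene rich in SNPs yields more of them. Of the 9 pairs of neighbours in the deposited order, 8 kept their order in 4 of 4 libraries (p = 0.125 each by exact permutation of signs, two-sided, which is the lowest value possible with 4 libraries; adjusted p = 0.141). Klf4 and Esrrb, which differed by 0.0048 on the log2(RPKM+0.1) scale, kept theirs in 2 of 4 (p = 1 from the exact test). The ranges of Prdm14 and Tbx3 and of Nr5a2 and Klf5 overlapped as well. By the length of all exons, all 9 pairs kept their order in 4 of 4 libraries (p = 0.125 each from the exact test, adjusted p = 0.125), and only the ranges of Esrrb and Sall4 overlapped.

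**Figure D1:**
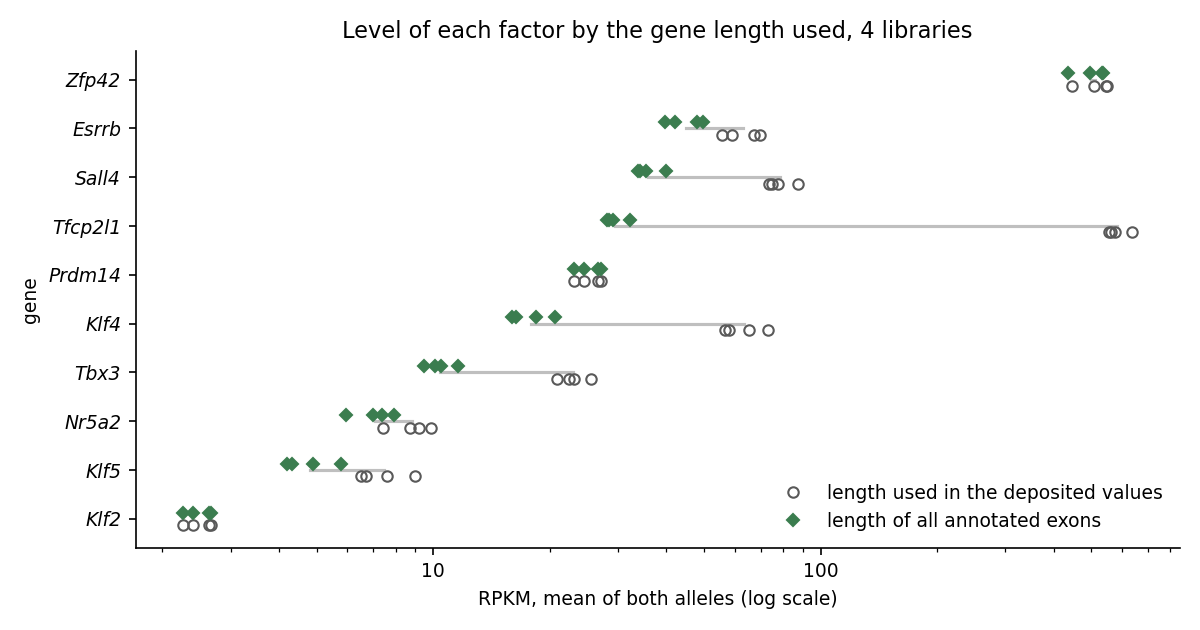
Level of each factor in the 4 libraries, as RPKM (mean of both alleles, log scale), with the gene length behind the deposited values (open circles) and with the length of all annotated exons (diamonds). The grey line joins the means, and it is longest for Tfcp2l1, which moves from 583 to 29.5 RPKM, whereas Zfp42, Prdm14 and Klf2 hardly move.

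The nuclear receptors of the set are Esrrb and Nr5a2. ESRRB is an orphan receptor downstream of WNT signaling that can stand in for NANOG, and NR5A2 is an orphan receptor that sustains Pou5f1 expression. Esrrb (ENSMUSG00000021255, chromosome 12, 86361117 to 86521628 in mm10, plus strand) had 54.4, 60.9, 64.0 and 50.7 RPKM on the S129 allele in replicates 1 to 4. Its CAST allele had 63.9, 74.1, 76.0 and 60.7 RPKM in the same libraries. CAST was higher within each library, by 1.17-fold to 1.22-fold, although the ranges of the alleles over the libraries overlapped. The log2 difference of Esrrb was -0.26 (S129 minus CAST on the log2(RPKM+0.1) scale, as in all that follow, SE 0.030, limma with Benjamini-Hochberg adjusted p = 0.00218 over 13341 genes). The median gene of chromosome 12 lay at -0.032 on this scale.

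Nr5a2 (ENSMUSG00000026398, chromosome 1, 136842571 to 136960448, minus strand) had 8.83, 9.24, 9.41 and 7.48 RPKM on S129 and 8.57, 9.18, 10.4 and 7.38 RPKM on CAST. The alleles were thus close in every library, with S129 above CAST in replicates 1, 2 and 4 and below it in replicate 3. The log2 difference of -0.017 had a 95% confidence interval from -0.14 to 0.10 and was not called (adjusted p = 0.757 from limma). The level of Esrrb was above that of Nr5a2 in the deposited values (63.1 ± 6.76 against 8.81 ± 1.04 RPKM, SD, n = 4) and by the length of all exons (44.9 against 7.07 RPKM).

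Klf2, Klf4 and Klf5 encode zinc-finger factors that bind the same CACCC-like sequences and cover for each other in ESCs. Klf4 (ENSMUSG00000003032, chromosome 4, 55527143 to 55532466, minus strand), a target of LIF and STAT3 and a reprogramming factor, was the highest of them on both scales, with 63.3 ± 7.66 RPKM as deposited and 17.8 RPKM by all exons (SD, n = 4). Its S129 allele had 60.1, 66.5, 75.1 and 57.5 RPKM and its CAST allele 56.2, 64.4, 71.4 and 55.6 RPKM in replicates 1 to 4. S129 was above CAST in 4 of 4 libraries, by 1.03-fold to 1.07-fold. This small log2 difference of 0.066 did not pass the test (95% confidence interval -0.014 to 0.15, adjusted p = 0.119 from limma), and passed it when undivided read numbers were compared (0.12, adjusted p = 0.0220 from limma).

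Klf5 (ENSMUSG00000005148, chromosome 14, 99298691 to 99315036, plus strand), which is also needed for the trophectoderm of the blastocyst, had 6.36, 7.59, 9.36 and 6.19 RPKM on S129. On CAST it had 6.64, 7.61, 8.56 and 7.25 RPKM. Between libraries, Klf5 had a coefficient of variation of 15.0%, the highest of the 10 factors as deposited, against a median of 8.88% over the factors and 9.26% over 11946 genes with at least 1 RPKM. With the median of each library removed, Klf2 varied more (SD of log2 values 0.18) than Klf5 (0.15). The difference between the alleles of Klf5, taken within libraries, was not called (log2 difference -0.041, 95% confidence interval -0.22 to 0.14, adjusted p = 0.620 from limma).

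Klf2 (ENSMUSG00000055148, chromosome 8, 72319033 to 72321656, plus strand), the KLF gene most tied to inhibition of the MEK pathway, was the lowest of the 10 with 2.49 ± 0.20 RPKM (SD, n = 4) and stood above 58.9% of all genes in the table. Its S129 allele had 2.39, 2.28, 1.96 and 2.24 RPKM and its CAST allele 2.88, 2.24, 2.84 and 3.11 RPKM. These values rest on 72 to 148 reads per allele and library, the fewest of the set. CAST was higher in replicates 1, 3 and 4 and about level with S129 in replicate 2. The log2 difference of -0.30 was close to the threshold (95% confidence interval -0.58 to -0.024, adjusted p = 0.0601 from limma). Without replicate 2 it was -0.41 and passed (adjusted p = 0.0197 from limma), and with a pseudocount of 1 RPKM it passed at -0.22 (adjusted p = 0.0471 from limma). The difference was -0.23 without replicate 3 (adjusted p = 0.174 from limma). The median gene of chromosome 8 lay at -0.25, and relative to it Klf2 was at -0.068 (adjusted p = 0.603 from limma).

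Tfcp2l1 (ENSMUSG00000026380, chromosome 1, 118627945 to 118685168, plus strand) encodes a CP2 family factor that acts below LIF and STAT3 and suffices to hold ESCs in self-renewal. Its S129 allele had 708, 707, 795 and 704 RPKM and its CAST allele 403, 445, 481 and 421 RPKM in replicates 1 to 4. All S129 values lay above all CAST values. S129 was higher by 1.59-fold to 1.76-fold within libraries (log2 difference 0.74, standard error 0.038, adjusted p = 0.000179 from limma). The share of S129 among its 9222 to 15108 assigned reads per library was 64.5%, 62.3%, 63.2% and 63.5%. The ratio of the alleles does not depend on the gene length, since the same 478 bp divides both. Of 12869 autosomal genes tested, 1324 had a higher log2 difference than Tfcp2l1.

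Tbx3 (ENSMUSG00000018604, chromosome 5, 119670669 to 119684724, plus strand), a T-box factor downstream of PI3K signaling in ESCs, had 20.1, 22.7, 24.8 and 20.9 RPKM on S129. Its CAST values were 21.7, 23.5, 26.4 and 23.9 RPKM. In RPKM, CAST was slightly higher in 4 of 4 libraries, by 1.03-fold to 1.15-fold, while in reads replicate 2 had 1749 on S129 and 1734 on CAST. With a log2 difference of -0.11 (95% confidence interval -0.21 to -0.0069), Tbx3 did not pass the test (adjusted p = 0.0630 from limma) and did so when only genes with at least 5 RPKM were tested (adjusted p = 0.0416 from limma). With undivided read numbers the difference was -0.055 (adjusted p = 0.275 from limma). The antisense gene Tbx3os1 overlaps Tbx3 and is not listed in the table, and whether the counting used strand is not given in the sources used here.

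The other zinc-finger factors are Zfp42, Prdm14 and Sall4. Zfp42 (ENSMUSG00000051176, chromosome 8, 43295063 to 43306980, minus strand) encodes REX1, whose loss marks the exit from the naive state and which is a relative of YY1. Its S129 allele had 480, 509, 511 and 421 RPKM and its CAST allele 539, 588, 578 and 473 RPKM in replicates 1 to 4. These values rest on 27974 to 52948 reads per library, the most of the set, and the S129 share of the reads lay between 47.4% and 48.1%. CAST was higher in each library, by 1.12-fold to 1.16-fold (log2 difference -0.18, standard error 0.029, adjusted p = 0.00655 from limma). The median gene of chromosome 8 was shifted toward CAST, at -0.25 over 713 genes. Relative to the median of its chromosome in each library, Zfp42 lay at 0.054 and was not called (adjusted p = 0.184 from limma). Chromosome 8 holds Klf2 too. The nearest tested genes on either side of Zfp42 lay at 0.080 (Triml2) and -0.0017 (Fat1, 1640 kb away between lowest coordinates). Those beside Klf2 lay at -0.44 (Ap1m1) and -0.50 (Eps15l1). The median thus did not describe all parts of the chromosome alike. The cause of its shift was not tested.

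Prdm14 (ENSMUSG00000042414, chromosome 1, 13113457 to 13127163, minus strand), which represses FGF signaling and DNA methyltransferases in ESCs and is needed for germ cell specification, had the largest allele difference of the 10. The S129 allele had 7.63, 8.55, 8.12 and 6.99 RPKM and the CAST allele 41.5, 44.7, 46.2 and 39.3 RPKM. Between the alleles no library overlapped, and CAST was higher by 5.22-fold to 5.69-fold in each of them. The log2 difference was -2.44 (standard error 0.036, adjusted p = 4.84e-06 from limma), and 114 of the 12869 autosomal genes tested had a lower value. In reads, S129 took 563 of 3527 in replicate 1, 563 of 3383 in replicate 2, 511 of 3310 in replicate 3 and 312 of 1996 in replicate 4. The S129 share was 16.0% in replicate 1 (exact 95% binomial interval 14.8 to 17.2%) and 15.6% in replicate 4 (14.1 to 17.3%), intervals that cover counting error only. Both alleles thus had reads in every library, most of them on CAST. The X-linked reads show only wrong assignment of S129 reads to CAST. Wrong assignment of CAST reads to S129, which would add to the S129 reads here, was not measured. The median gene of chromosome 1, which also holds Tfcp2l1 and Nr5a2, lay at -0.0073 (748 genes).

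Sall4 (ENSMUSG00000027547, chromosome 2, 168748332 to 168767943, minus strand), a spalt-like factor that partners with OCT4 and NANOG, had 72.5, 74.3, 81.4 and 70.4 RPKM on S129 and 74.9, 80.9, 93.2 and 79.2 RPKM on CAST. In RPKM, CAST was higher in 4 of 4 libraries, from 1.03-fold in replicate 1 to 1.14-fold in replicate 3, while in reads replicate 1 had 5289 on S129 and 5287 on CAST. With a log2 difference of -0.13 (standard error 0.039) it passed the test narrowly (adjusted p = 0.0388 from limma). The call was lost without replicate 2 (-0.14, adjusted p = 0.112 from limma), without replicate 3 (-0.11, adjusted p = 0.135) and without replicate 4 (-0.12, adjusted p = 0.0999). It was also lost with no filter on low values (adjusted p = 0.0842 from limma), with the autosomes rescaled to no median difference (-0.11, adjusted p = 0.0600), relative to the median of its chromosome (-0.12, adjusted p = 0.0579) and with undivided read numbers (-0.078, adjusted p = 0.141).

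**Figure D2:**
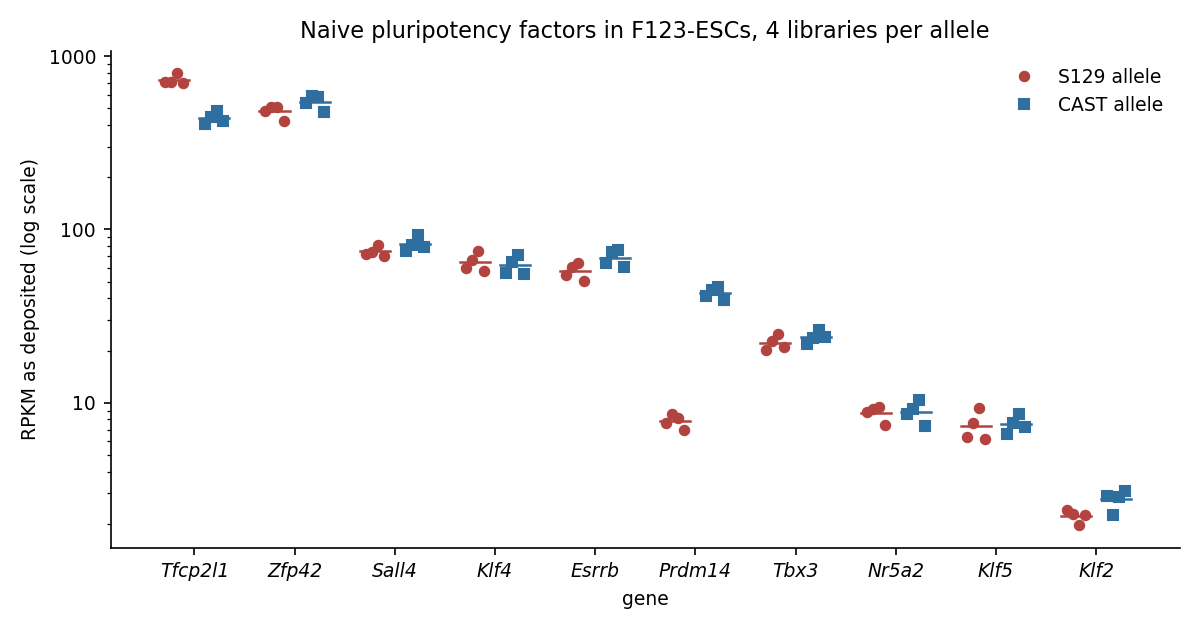
Deposited RPKM (log scale) of the S129 allele (circles) and the CAST allele (squares) of each factor, 1 point per library and a line at the mean of 4. Prdm14 is the gene whose alleles stand furthest apart, with 7.82 RPKM on S129 against 42.9 RPKM on CAST, and Tfcp2l1 is the only other one whose alleles do not overlap.

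Over the 10 factors, 5 were called between the alleles, where 62.7% of all 13341 genes tested were called. S129 was higher in 1 of them, Tfcp2l1, against 31.4% of all genes, and CAST was higher in 4, Prdm14, Esrrb, Zfp42 and Sall4, against 31.3%. Their differences were mostly small, with a median size of 0.16 on the log2 scale against 0.31 over all genes tested. A difference of at least 2-fold was found for 1 of the 10, Prdm14, and for 15.9% of all genes. The values over all genes include 467 X-linked genes, of which the male cells hold only the S129 copy, while the 10 factors are autosomal. When library pairing was left out of the fit, 2 factors were called, Prdm14 and Tfcp2l1, whereas Esrrb (adjusted p = 0.0830 from limma), Zfp42 (adjusted p = 0.173) and Sall4 (adjusted p = 0.255) were not. Prdm14 and Tfcp2l1 kept their calls under every alternative run.

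**Figure D3:**
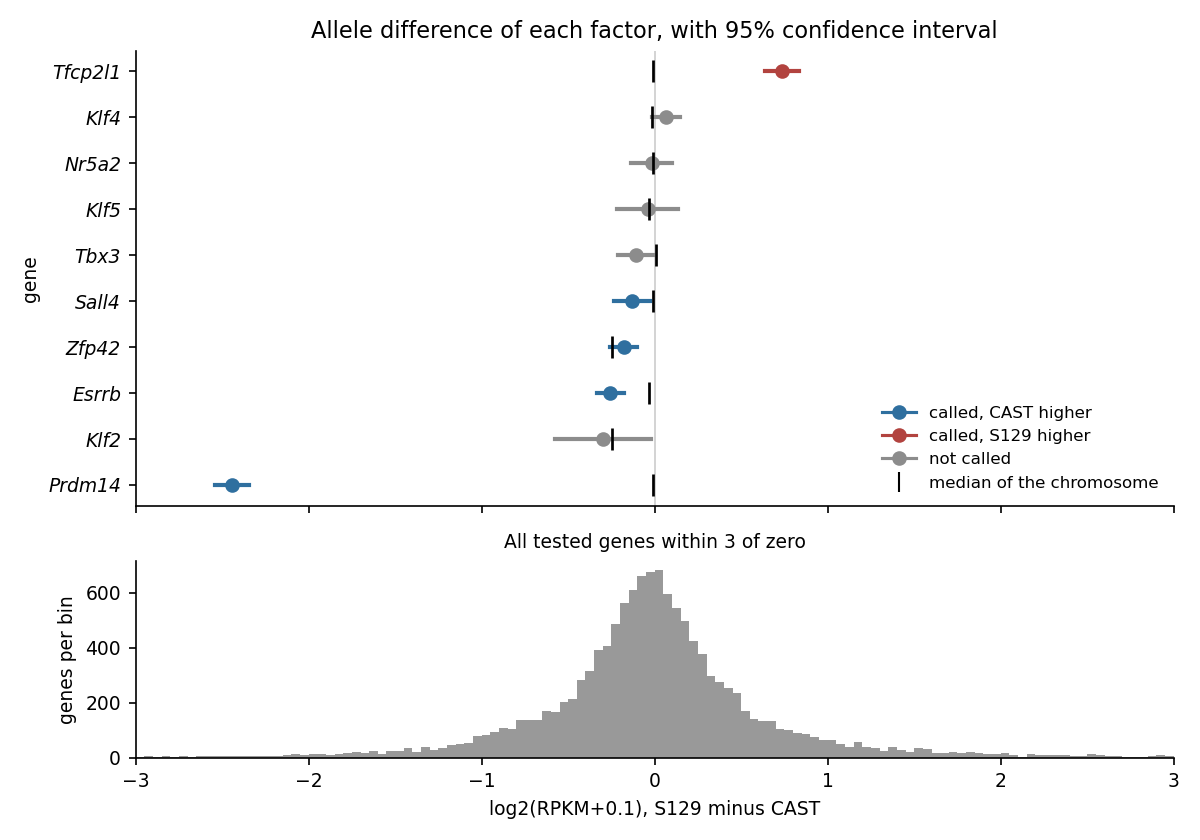
Top, log2(RPKM+0.1) difference S129 minus CAST of each factor with its 95% confidence interval from limma, coloured by the call, and the median of its chromosome as a black tick. Bottom, the number of all tested genes per bin of the same difference, most of which lie close to 0. Prdm14 at -2.44 lies in the thin left part of this distribution, and Zfp42 and Klf2 lie next to the tick of chromosome 8 at -0.25.

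The nearest tested genes beside the factors show whether these genes shared a difference, and many of them are not close. Between lowest coordinates, Fat1 lay 1640 kb from Zfp42, Nek7 1640 kb from Nr5a2 and Ctnnal1 1284 kb from Klf4. Vash1 lay 318 kb from Esrrb and Slco5a1 247 kb from Prdm14, while others were nearer. Whether a difference extended over the region right around a factor was not tested by such distant genes. For the nearest tested protein-coding gene on either side of each factor, 20 genes in all, 4 were called higher on S129, 11 were called higher on CAST and 5 were not called, beside 31.4% and 31.3% of all tested genes in either direction. On one side of Prdm14, Slco5a1 was higher on S129 (log2 difference 0.95, adjusted p = 6.88e-05 from limma). On the other side Ncoa2, whose lowest coordinate lies 25.6 kb from that of Prdm14, was not called (0.098, adjusted p = 0.382 from limma). Neither neighbour of Prdm14 thus shared its direction. Next to Tfcp2l1, Clasp1 was higher on CAST (-0.23, adjusted p = 0.00323 from limma) and Gli2 was not called (-0.16, adjusted p = 0.103), so that these also did not share the S129 excess. On either side of Klf2, Ap1m1 (-0.44, adjusted p = 0.00535 from limma) and Eps15l1 (-0.50, adjusted p = 0.000656) were both higher on CAST. Triml2 (0.080, adjusted p = 0.0735 from limma) and Fat1 (-0.0017, adjusted p = 0.967) beside Zfp42 were not called. Of the genes beside Sall4, Atp9a was higher on CAST as Sall4 was (-0.35, adjusted p = 0.00486 from limma) and Zfp64 was higher on S129 (0.50, adjusted p = 0.000741). Beside Esrrb, Vash1 was higher on S129 (2.24, adjusted p = 8.45e-05 from limma) and Gpatch2l was not called (0.12, adjusted p = 0.0590).

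The S129 share of the reads compares the alleles with no division by their totals. It was between 45.6% and 52.1% on average for 8 of the factors, with 63.4% ± 0.88 for Tfcp2l1 and 15.9% ± 0.53 for Prdm14 (SD, n = 4). The spread between libraries was widest for Klf2, with shares of 46.2%, 51.4%, 41.8% and 42.9%. With 168 to 275 reads per library these shares have wide intervals, as from 35.1 to 48.7% in replicate 3 (exact 95% binomial interval).

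**Figure D4:**
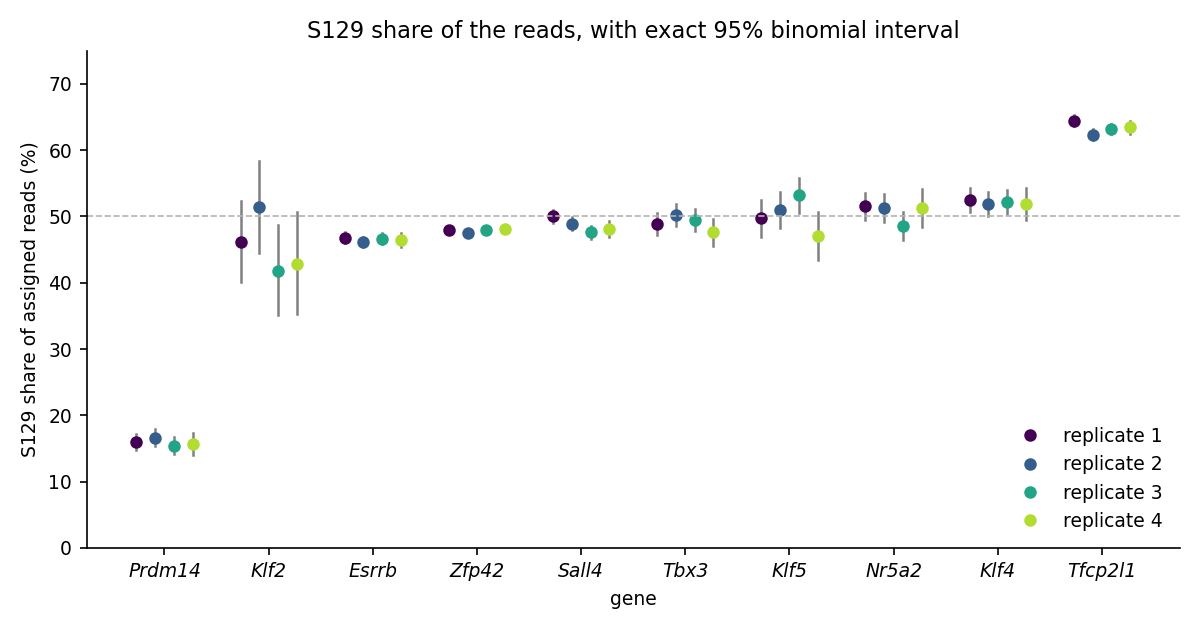
S129 share of the assigned reads (%) of each factor in each of the 4 libraries, with the exact 95% binomial interval and a dashed line at 50%. All shares of Prdm14 lie between 15.4 and 16.6% and all shares of Tfcp2l1 between 62.3 and 64.5%, while the intervals are widest for Klf2.

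Across libraries, 8 of the 10 factors had their highest level in replicate 3, where 40.5% of the 11946 genes with at least 1 RPKM were also highest. The others were Zfp42, highest in replicate 2 (549 RPKM), and Klf2, highest in replicate 4 (2.67 RPKM). With the median of all these genes taken out of each library, 8 of the 10 were still highest in replicate 3, against 19.5% of genes. The lowest levels were in replicate 4 for 5 factors, in replicate 1 for 4 and in replicate 2 for Klf2. The median deviation of the factors from their mean over libraries was 0.16 in replicate 3 and -0.13 in replicate 4 on the log2 scale, against 0.076 and -0.098 for all genes with at least 1 RPKM. These are small differences in 1 group of 4 libraries and are given without a test. Other cells could differ between the libraries too. The summed level of 10 feeder fibroblast markers was 183, 216, 230 and 195 RPKM in replicates 1 to 4, a sum carried by Col1a2, whose RPKM was also computed on a short length of 850 bp. Of the 10 feeder markers 8 were at or above 1 RPKM and none was at 0. The median deviation of these 8 from their mean was -0.17, 0.14, 0.13 and -0.062 on the log2 scale, high in replicates 2 and 3. All genes with at least 1 RPKM were at -0.027, 0.057, 0.076 and -0.098, which was not subtracted from the marker values. The 10 markers of ESCs summed to 8934, 8014, 7720 and 9382 RPKM, a sum carried by Dppa5a, while their median deviation was -0.018, 0.11, 0.11 and -0.21, high in replicates 2 and 3 as well. The part of feeder cells or of the state of the culture in the levels of the factors was not tested.

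The families of the factors were compared on the scale of all annotated exons. Esrrb, Nr5a2, Tfcp2l1, Tbx3, Zfp42, Prdm14 and Sall4 each had a higher RPKM than every relative listed for their family. The nearest relatives were far lower for Zfp42, with Yy1 at 7.10 RPKM by all exons, and for Nr5a2, with Nr5a1 at 0.036 RPKM. For Esrrb the highest relative was Esrra at 8.72 RPKM, for Tfcp2l1 it was Ubp1 at 12.5 RPKM and for Sall4 it was Sall1 at 7.95 RPKM. Prdm14 at 25.4 RPKM was followed by Prdm4 at 12.9 RPKM, and Tbx3 at 10.4 RPKM by T, the mesoderm factor brachyury, at 7.86 RPKM.

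Among KLF genes the naive factors were not the highest. By all exons Klf16 had 20.2 RPKM against 17.8 RPKM for Klf4, and Klf10, Klf13, Klf15, Klf16 and Klf9 were above Klf5. Klf2 had 9 of the 14 other KLF genes above it. In the deposited values Klf8, which is X-linked and was divided by a length of 247 bp, was above Klf4 with 95.8 RPKM, and it had 4.54 RPKM by all exons. Of the 55 relatives in all families, 29 were at or above 1 RPKM in the deposited values and 35 were tested between the alleles. By all exons, Tbx15 (0.34 RPKM) and Prdm15 (0.57 RPKM) among the former fell below 1 RPKM. Of these, 11 were called higher on S129, 14 higher on CAST and 10 were not called, beside 31.4% and 31.3% of all tested genes.

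**Figure D5:**
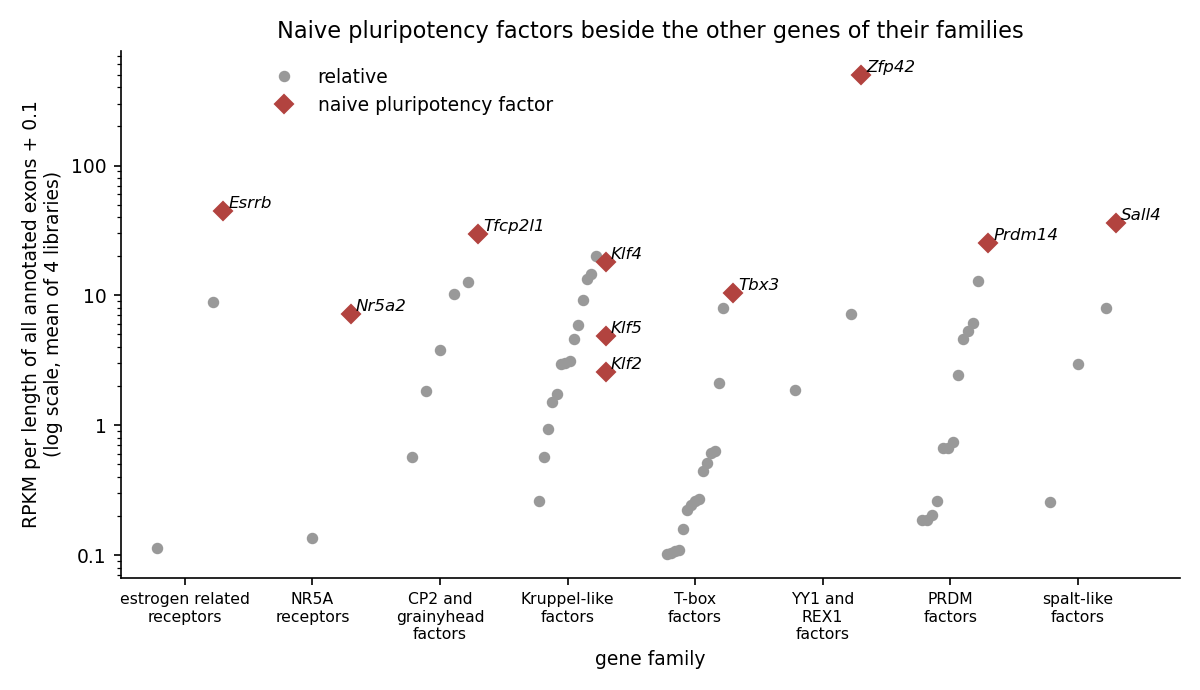
Mean RPKM over 4 libraries per length of all annotated exons, with 0.1 added for the log scale, of each factor (diamonds) and of the other genes of its family (circles). In 7 families the factor is the highest gene, with Zfp42 at 500.4 RPKM the highest of all, whereas Klf5 and Klf2 lie among the other Kruppel-like factors.

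Of 20 other genes of the pluripotency network, from LIF receptor and JAK to core factors and targets, 12 were called higher on S129 and 3 higher on CAST, and 5 were not called, beside the 31.4% and 31.3% of all genes. Their median log2 difference was 0.22, against -0.12 for the 10 naive factors and -0.0034 for all genes tested. Pou5f1, which encodes OCT4, was higher on CAST (log2 difference -0.24, adjusted p = 0.0242 from limma). Sox2 was higher on S129 (153 ± 17.6 against 96.8 ± 11.2 RPKM, SD, n = 4, log2 difference 0.66, adjusted p = 0.000124 from limma), and so was Nanog (104 ± 14.9 against 64.9 ± 7.84 RPKM, 0.68, adjusted p = 0.000143). Each of these directions held in 4 of 4 libraries. The largest S129 difference was that of the X-linked gene Nr0b1 (8.12), whose CAST copy is absent from these male cells. Toward CAST, the largest were Tet2 (-0.95, adjusted p = 4.48e-05 from limma) and Gbx2 (-0.74, adjusted p = 0.000438). Tet2 lies on chromosome 3, whose median was -0.74, and none of the 10 naive factors is on chromosome 3 or on chromosome 16, which had the largest shifts of the autosomes.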

How the data were processed

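The authors aligned RNAseq reads to mm10 masked at SNPs with STAR after FastQC and Trimmomatic 0.40, assigned them to S129 or CAST with SNPsplit, and deposited RPKM per gene, allele and library. The deposited averages over libraries, in RPKM and as log10 of the average plus 1, were not used. Columns were matched to libraries by allele and number. The program that counted reads and its annotation are not given in the sources used here.

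The factors, their families and all gene lists were chosen with earlier results of these data known. Named genes are the factors, the highest relative of each family and any above its factor, Pou5f1, Sox2 and Nanog with the 2 largest calls per direction of the network list, and the nearest tested gene on either side of a factor. A few results that this rule covers are not reported here. Gene lengths (GENCODE M21) and allele totals were worked out from the steps by which RPKM rise. Of 20243 genes above 0, 20122 gave whole reads (within 0.02 reads plus 2e-07 of the number), and allele totals were 16716721 to 28772351 reads. A read on Tfcp2l1 stood for 0.0727 to 0.125 RPKM and on Nr5a2 for 0.0073 to 0.0126 RPKM.

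Alleles were compared with limma 3.58.1 (R 4.3.3) as an intercept on within-library differences of log2(RPKM+0.1). It was fitted to 13341 genes whose alleles sum to a mean of 1 RPKM or more. P-values were adjusted by Benjamini-Hochberg, with a threshold of 0.05. A fold on this scale is understated for low values. Neighbours in the order of levels were compared by exact sign-flip tests over 4 libraries. Both alleles are reads of one library, which gives the pairing. Over 10915 genes, deviations from the allele means correlated at 0.155 to 0.278 within a library and at -0.249 to 0.223 between libraries. Scripts were tested on simulated data. Alternatives covered pseudocounts, filters, scaling, the chromosome median, a variance trend, pairing, gene length, single alleles and each library left out. Whole reads undivided by the total and upper-quartile scaling were added after seeing the data.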

Additional observations from a re-analysis of the deposited data

Results flagged for a closer look

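The S129 share of the reads of Nr5a2 was 48.5% in replicate 3 against 51.2% to 51.6% elsewhere. Dixon's criterion marked this value as far from those of the 3 remaining libraries. It was 1 of 20 quantities examined in this way, the level and the S129 share of each of the 10 factors, and chance marks about 1 in 20. Its cause was not tested.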

How the results depend on the processing

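Of 119 allele differences recomputed with one choice changed, 103 kept direction and call status, 9 lost the call, 3 gained one and 4 turned. Zfp42 turned to 0.054 relative to the median of its chromosome. Nr5a2, which was not called, turned to 0.0060 with the autosomes rescaled and ran from -0.037 to 0.024 with 1 library left out, and Klf5, also not called, ran from -0.097 to 0.020. That centring left 3 factors called, 2 of them higher on CAST. With no replicate block, that is without the pairing by library, 2 were called, 1 of them higher on CAST. With undivided read numbers, an alternative added after seeing the data, 2 were called higher on S129, as Klf4 joined Tfcp2l1, 3 were called higher on CAST, as Sall4 lost its call, Klf5 turned to 0.014 and Nr5a2 to 0.038, and calls over all genes split into 4661 higher on S129 and 3570 on CAST, against 4187 and 4182. Leaving out 1 library at a time gave 4 to 5 factors called, 3 to 4 of them higher on CAST and 1 higher on S129, and 6846 to 7904 genes called in all. Tfcp2l1 against Zfp42 turned to -4.08 by the length of all exons and to -0.31 on CAST alone (log2), Klf4 against Esrrb to -1.33 and -0.15 in the same settings, and Prdm14 against Tbx3 to -1.49 on S129 alone. The first of each pair follows from the lengths themselves, and the single-allele values from the allele differences of these genes. Klf2 is not tested at the minimum of 5 RPKM. With 72 reads in its lowest column, depth limits Klf2 most.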

Other observations

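Markers of other cell states were measured in the same libraries, as deposited RPKM of both alleles (SD, n = 4). Of 9 genes of the formative and primed states that follow naive pluripotency, 6 were at or above 1 RPKM, with Dnmt3b, a DNA methyltransferase, at 71.2 ± 7.18 RPKM and Dusp6, a target of FGF and ERK signaling, at 33.7 ± 3.66 RPKM. Otx2 (2.37 ± 0.17 RPKM) and Fgf5 (1.53 ± 0.26 RPKM), markers commonly used for this step, stood beside the 2.49 ± 0.20 RPKM of Klf2, the lowest naive factor. By the length of all exons Otx2 had 1.46 RPKM and Fgf5 1.53 RPKM, both below the 2.49 RPKM of Klf2. Lef1 fell from 1.65 to 0.65 RPKM by that length, while Dnmt3b had 58.7, Dusp6 30.1 and Foxd3 9.81 RPKM. Of 10 primitive endoderm markers 6 were at or above 1 RPKM. Among them, Dab2 had 44.2 ± 2.85 RPKM, which falls to 3.87 RPKM by the length of all exons. Lama1 had 11.2 ± 0.82 RPKM and hardly changed by that length. Gata4, at 1.03 ± 0.11 RPKM as deposited, fell to 0.89 RPKM by it. Gata6 (0.69 RPKM) and Pdgfra (0.95 RPKM) also fell below 1 RPKM by that length. Of 8 trophectoderm markers 2 were at or above 1 RPKM as deposited. These were Ascl2 (2.07 ± 0.21 RPKM) and Hand1 (1.22 ± 0.17 RPKM), while Cdx2 had 0.39 ± 0.037 RPKM. None of these genes was at 0. In bulk RNA these levels do not tell whether a few cells or all cells express them.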
